A study of Drosophila melanogaster with 2 samples.

Results

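Binding of Polycomb-like (Pcl) was examined over Ultrabithorax (Ubx) and the bxd and pbx regulatory DNA upstream of it, on chromosome arm 3R of Drosophila melanogaster. The peaks were chosen by position alone: those on 3R whose centre lay from 12480000 up to, but not including, 12632000 on build BDGP5, a window of 152 kb. This gave 43 of the 2457 peaks in the list, and 43 of the 791 on 3R. The list comes from chromatin immunoprecipitation and sequencing (ChIP-seq) of whole embryos collected 0 to 8 h after egg laying. Per the labels, the flies were of the iso1 strain, marked y; bw cn sp, or were transgenic, and the sample does not say which. The embryos received no treatment. The antibody was KW4-Pcl-D2 against Pcl, with 1 input sample as its control. Since 3 replicates share 1 title and 1 list, no value below has a replicate error or a test between samples. Read depth is unknown, since the list holds no counts.

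Ubx encodes the homeodomain protein that gives the posterior thorax and the first abdominal segment their identity. The neighbouring genes abd-A and Abd-B do the same for more posterior segments. Together they form the bithorax complex, whose silent state is maintained by Polycomb group proteins. These are recruited through Polycomb response elements (PREs), of which one lies in the bxd DNA upstream of the Ubx promoter and another, bx, in a Ubx intron. Pcl is a component of a form of Polycomb repressive complex PRC2, which methylates lysine 27 of histone H3. In a whole embryo, cells in which Ubx is active and cells in which it is silent are mixed, and 1 list cannot tell their chromatin apart.

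Ubx is transcribed towards lower coordinates, so its 3′ part lies at the low end of the window and the bxd and pbx DNA at the high end. In the RefSeq gene table of Release 6, used here for gene names and order only, Ubx follows modSP, a gene for a serine protease of the Toll pathway. Between Ubx and abd-A stand lncRNA:bxd, CG31275, lncRNA:CR44945, Glut3, lncRNA:CR45750 and lncRNA:TS16, of which 2 are protein-coding and 4 are long non-coding RNA genes. CG31275 lies within the span of lncRNA:bxd, the non-coding transcript of the bxd region, and Glut3 is named as a glucose transporter. The antisense RNA asRNA:PS4 lies within the span of Ubx. The exact Ubx start site, its exons and introns and the PREs were not placed on BDGP5 here. Each peak is therefore given by its coordinates and by its distance from the window's low end, and no peak is assigned to an exon, a promoter or a named element.

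Pcl peaks ran through nearly the whole window, with a single very high peak in its upper part. The first peak began at 12487002 and the last ended at 12631606, a span of 144.6 kb. The high peak lay at 12588877 to 12590586 and scored 810.4, while the next highest, at 12510685 to 12512423, scored 389. The score is the authors' value from the peak caller, on a scale that the file does not state. It is used below only to rank and describe peaks within this list, whose lowest score was 50.01. The scores of the 43 peaks ranged from 50.87 through a median of 82.7 to 810.4, with quartiles of 64.6 and 176. Their widths ranged from 635 bp through a median of 810 bp to 2470 bp. The 95% exact intervals of these medians, which treat peaks as independent although neighbours are not, were 73.9 to 141 for the score and 748 to 1061 bp for the width.

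**Figure D1:**
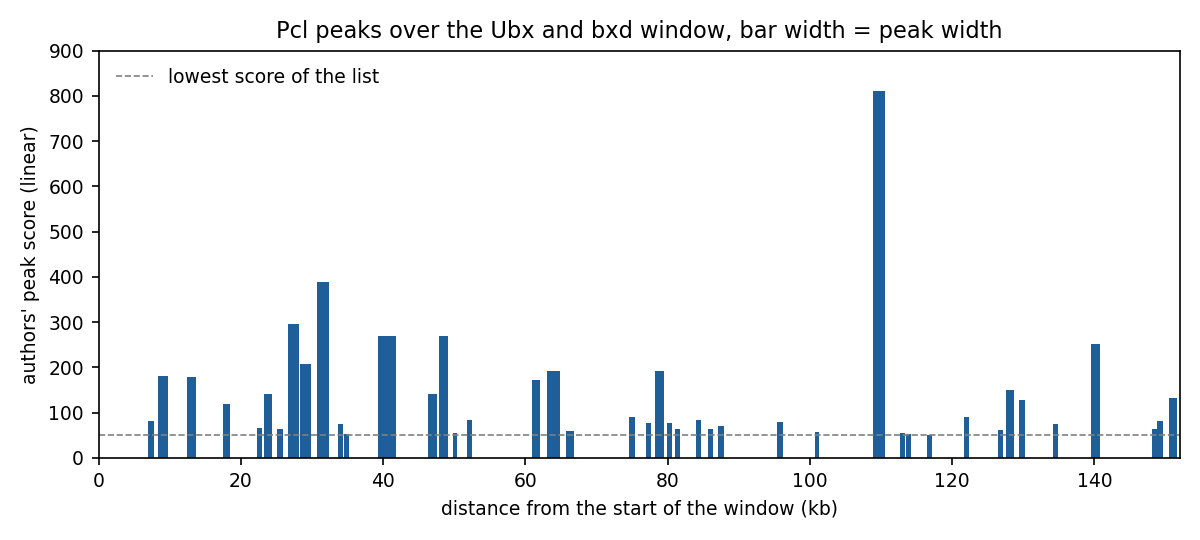
Pcl peaks over the Ubx and bxd window. Each bar is 1 of the 43 peaks, drawn at its distance in kb from the low end of the window and as wide as the peak; its height is the authors' peak score on a linear axis, and the dashed line marks the lowest score of the list, 50.01. A single bar, 109.7 kb from the low end, reaches 810.4, and every other bar stays at or below 389.

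Peaks of middle score made up a larger share of the window than of the whole list, but each exact interval included the share in the list. These intervals treat peaks as independent although neighbours are not, so they are no test against the list. A score of at least 100 was reached by 18 of the 43 peaks (41.9%, 95% exact binomial interval 27.0 to 57.9), against 27.3% of the whole list. A score of at least 200 was reached by 7 peaks (16.3%, interval 6.81 to 30.7), against 7.45% of the list. A score of at least 500 was reached by 1 peak (2.33%, interval 0.0589 to 12.3), against 2.04% of the list, so this share was close to the background. A score of at least 60 was reached by 36 peaks (83.7%, interval 69.3 to 93.2), against 74.0% of the list. In width, 9 peaks (20.9%, interval 10.04 to 36.0) measured at least 1300 bp, against 12% of the list. Set against all peaks, the median score of the window was 82.7 against 73.6, and the median width 810 against 830 bp. The median score of the list lay just below the interval of the window's median score, and its median width lay inside that of the window's median width.

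The peaks continued without a gap of 10 kb into the abd-A side of the complex, and scores there were higher. With neighbours less than 10 kb apart joined, the 43 peaks formed 1 cluster with 64 further peaks at higher coordinates. Those 64 had a median score of 153 and a median width of 1040.5 bp, and 14 of them scored at least 500. The window held 283 peaks per Mb and the rest of the cluster 368 per Mb, whereas 3R outside the cluster held 24.9 per Mb of the span between its first and last peak. Peaks covered 28.4% of the bases of the window, 48.9% of the rest of the cluster and 2.43% of 3R outside it. Among the 684 peaks of 3R outside the cluster, the median score was 70.4, and 25% reached 100. The window thus stood between the remainder of the complex and the rest of the arm in density, in coverage and in the share of peaks past 100. In median width it did not, as its 810 bp lay below the 834.5 bp of 3R outside the cluster. Its share of peaks scoring at least 500, 2.33%, was near the 1.90% of 3R outside the cluster, against 21.9% in the rest of the cluster. The 25% past 100 on 3R outside the cluster lay just below the window's exact interval of 27.0 to 57.9. At scores of 60, 200 and 500, and at a width of 1300 bp, the share on 3R outside the cluster lay inside the window's interval. These differences have no test, since neighbouring peaks of 1 list are not replicates.

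**Figure D2:**
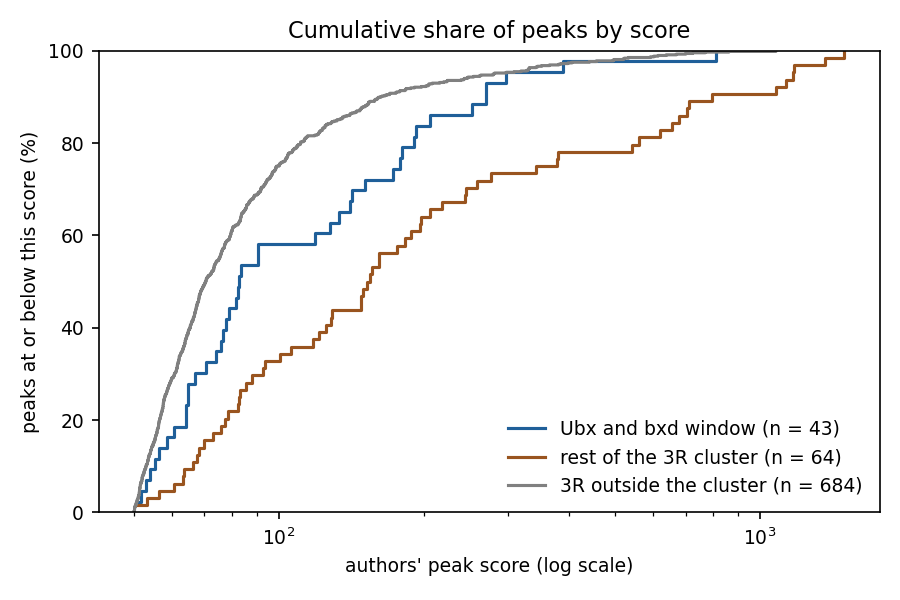
Cumulative share of peaks (vertical axis, %) at or below a given authors' peak score (horizontal axis, log scale) for the Ubx and bxd window, the rest of the same cluster and 3R outside the cluster. The window's curve lies between the other 2 for most scores, with medians of 70.4 on 3R outside the cluster, 82.7 in the window and 153 in the rest of the cluster, and near the top it meets that of 3R.

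The low edge of the window was clear of peaks and the high edge was not. The nearest peak below the window, at 12456473 to 12457447, scored 72.3, and 29554 bp without a peak separated it from the first peak of the window. At the other end the last peak of the window, at 12630551 to 12631606 (score 133), had its centre 0.92 kb inside the edge. The next peak, at 12631697 to 12632471 (score 75.9), began 90 bp later and had its centre 0.084 kb outside. It overlapped the window but was not counted. The peak after that, at 12634977 to 12638214, scored 1077.

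The low end of the map, which holds the 3′ part of Ubx, carried the 8 kb bin with the highest coverage by peaks, 71.0%. It opened with peaks at 12487002 to 12487736 (score 82.3), 12488303 to 12489721 (180.5) and 12492465 to 12493750 (179). A lone peak followed at 12497525 to 12498462 (119). Then came 8 peaks from 12502227 to 12515202, and peaks covered 69.7% of that stretch. Of those 8, the first 6 were separated by less than 1 kb each, with gaps of 261, 757, 647, 152 and 761 bp. Joined across such gaps, they made a region of 10.2 kb, the third longest of the 2160 regions into which the whole list fell when treated alike.

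Scores were uneven inside that region of 10.2 kb. From low to high coordinates its 6 peaks scored 66.8, 142, 64.1, 296, 207 and 389. The 3 strongest stood together at the high end, at 12506601 to 12508159, 12508312 to 12509923 and 12510685 to 12512423, and they ranked 3rd, 7th and 2nd in the window. Each of these 3 was wide, with 1559, 1612 and 1739 bp. In the whole list the peak with 389 ranked 75th by score. Beyond it the scores dropped to 73.9 at 12513588 to 12514335 and 51.8 at 12514522 to 12515202. The latter is among the 3 lowest of the window.

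Next came the widest peak of the window and a second group with a middle-sized maximum. The widest peak, at 12519324 to 12521793, was 2470 bp wide and scored 269, and no other peak centre lay within 5 kb of it. Its width ranked 20th on 3R and 46th in the list, and its score 58th on 3R and 126th in the list. A group of 4 followed from 12526364 to 12532557, with scores of 141, 269, 53.9 and 83.3. Its highest peak, at 12527840 to 12529167, was 1328 bp wide, so 2 peaks of nearly equal score, 269.3 and 269.1, differed in width by more than 1 kb.

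The middle of the window held peaks of moderate score set apart by the largest gaps. After a gap of 8437 bp, the largest in the window, came 12540995 to 12542020 (score 173), 12543071 to 12544829 (193) and 12545706 to 12546795 (58.5). The second of these was 1759 bp wide, the second widest of the window. The third was wide for its score, with 1090 bp, whereas the other 6 peaks under 60 measured 635 to 696 bp. A gap of 7829 bp followed.

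Then 8 peaks ran from 12554625 to 12567895, a stretch of 13.3 kb, the longest of the window. Only 1 of them passed 100: the peak at 12558190 to 12559437, which was 1248 bp wide and scored 191. It was flanked by 77.6 at 12556941 to 12557615 and by 76.6 at 12559972 to 12560676. The remaining 5 scored 90.4, 64.2, 82.7, 64.6 and 70.6 in map order and measured 674 to 764 bp. Here many peaks came with low scores: the group had a median score of 77.1, against 108 in the 8-peak group at the low end. Of the latter group, 4 peaks scored above 100.

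The stretch before the high peak was the emptiest of the window. Between 12567896 and 12588876 stood 2 peaks, at 12575431 to 12576233 (score 78.7) and 12580679 to 12581321 (56.4). Gaps of 7535, 4445 and 7555 bp surrounded them. In bins of 8 kb, coverage by peaks was 7.11% and 11.0% in the bins from 88 to 96 kb and from 96 to 104 kb, against a median of 27.1% over the 19 bins. The first bin, before most of the peaks begin, had 9.19%, and the fullest, from 24 to 32 kb, had 71.0%. Every bin held at least 1 peak centre, and no bin held more than 5.

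**Figure D3:**
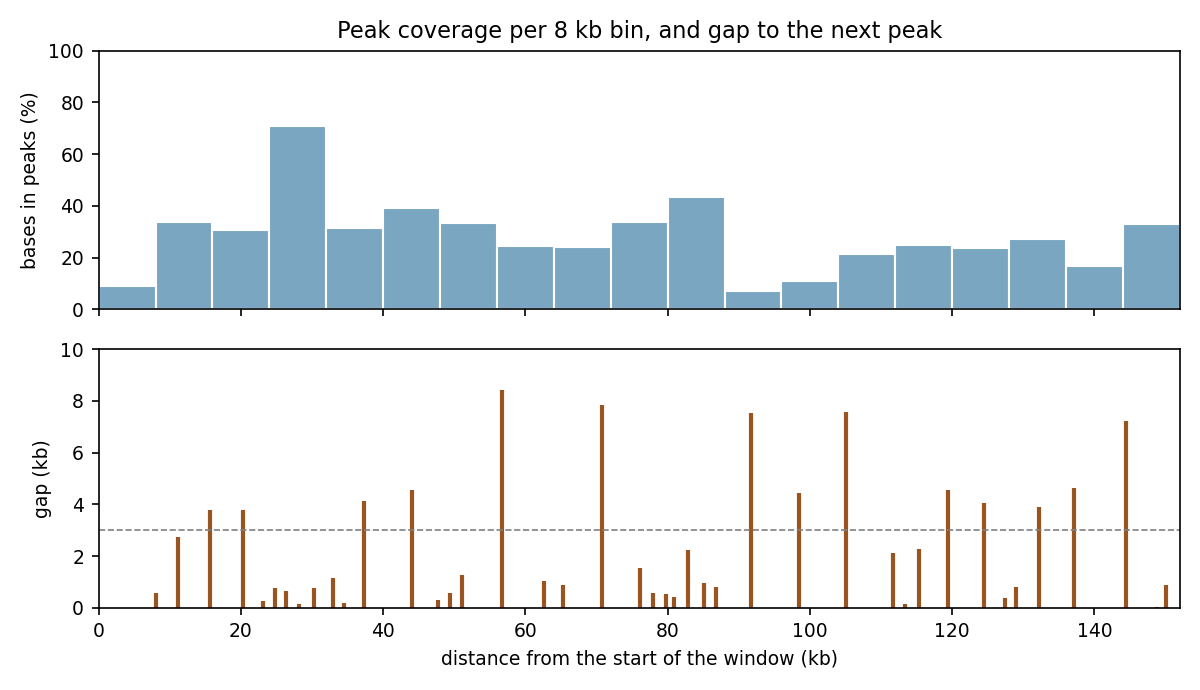
Upper panel: share of bases in peaks (%) in 19 bins of 8 kb along the window. Lower panel: each line is 1 of the 42 gaps between neighbouring peaks, at its midpoint, with its length in kb; the dashed line marks 3 kb. Coverage peaks at 71.0% between 24 and 32 kb and is lowest, at 7.11%, between 88 and 96 kb, and 5 gaps exceed 7 kb.

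The highest peak of the window stood alone among low ones. At 12588877 to 12590586 it was 1710 bp wide, with its centre 109.7 kb from the low end and 42.3 kb from the high end. It ranked 25th by score in the whole list, 9th on 3R and 7th in the cluster. No peak lay in the 7555 bp before it. After it came peaks at 12592711 to 12593345 (score 55.3), 12593494 to 12594163 (52.9) and 12596434 to 12597127 (50.87), the last being the lowest of the window. The first 2 of these followed after 2124 and 148 bp.

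Few peaks of such height had so little beside them. Within 10 kb of its centre were 4 other peaks, the highest of which scored 56.4. In the whole list 50 peaks scored at least 500, and 43 of them had another peak centre within 10 kb. Among those 43 the highest neighbour had a median score of 166, and none had a lower one than 56.4; the other 7 had no neighbour at all. For the 14 such peaks in the rest of the cluster, the highest neighbour scored from 133 through a median of 639 to 1496. This comparison was chosen after the values were seen and is a description.

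Among the peaks of the whole list that scored at least 500, the high peak was also narrower than the median. Of these 50 peaks it was the 38th widest, with 12 narrower, and their median width was 2547 bp. Many of the 50 scored higher, and peaks of like score were not compared separately. In the rest of the cluster the 14 measured 1264 to 4459 bp with a median of 1988 bp, so 1710 bp lay within their range. Within the window 3 peaks with lower scores were wider: 2470 bp (score 269), 1759 bp (193) and 1739 bp (389). The second highest peak was 78.2 kb away from it, and the next peak of at least 500, the one scoring 1077 beyond the window, was 46.9 kb away.

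The high end of the window, towards abd-A, held spaced peaks of low to middle score. A lone peak at 12601689 to 12602436 scored 90.3. A group of 3 from 12606477 to 12610266 had scores of 60.6, 151 and 128, with the highest at 12607572 to 12608632. Lone peaks followed at 12614180 to 12614881 (75.8) and 12619508 to 12620850 (252). The latter was 1343 bp wide, ranked 6th in the window and 141st in the list, and had no other peak centre within 5 kb. After 7211 bp without a peak, the window closed with 12628062 to 12628829 (64.6), 12628857 to 12629669 (81.3) and the peak of 133 at the edge. The first 2 of these were 27 bp apart, the smallest gap of the window.

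The parts on both sides of the high peak differed little in density. Before it lay 30 peaks in 108.9 kb (276 per Mb), with a median score of 83.0 and a highest of 389. After it lay 12 peaks in 41.4 kb (290 per Mb), with a median score of 78.5 and a highest of 252. A score of at least 200 was reached by 5 peaks before it and 1 after it. Peaks covered 28.9% of the bases before it and 24.2% after it. The median gap was 952 bp before it and 2270 bp after it. With only 12 peaks after it, the latter median rests on few gaps, of which the next shorter was 881 bp. No difference in spacing is therefore read from these medians.

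Spacing was uneven, but whether peaks were more bunched than random placement at this density would give was not tested. The 42 gaps ranged from 27 to 8437 bp with a median of 1107 bp. Of them 20 (47.6%) were under 1 kb, 8 were from 1 to under 3 kb, 9 from 3 to under 5 kb, and 5 were longer. These 5 gaps together took up 38.6 kb, or 26.7% of the span of the peaks. In the rest of the cluster the median gap was 635 bp and 66.7% of gaps were under 1 kb, and in the whole list 12.1% were. These shares depend on density, which was only 16.8 peaks per Mb in the whole list. The distance between neighbouring centres had a median of 2.35 kb in the window and 2.08 kb in the rest of the cluster.

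With gaps under 3 kb joined, the 43 peaks fell into 15 stretches, and 7 of these were single peaks. The 2 stretches of 8 peaks held 16 of the 43 peaks. Joined at gaps under 1 kb they formed 23 regions, of which 13 were single peaks and 10 held the other 30 peaks of the window. The last of the 10 also took in the peak just past the edge. How far the peak caller divided wider areas of enrichment into several peaks was not tested.

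Local maxima were spread along the whole window. A peak was counted as one when it scored higher than every other peak with a centre within 5 kb, and 14 of the 43 peaks (32.6%) met this. The share in the whole list was not computed. It depends on how densely peaks lie, so the count is a description of the map only. Neighbouring maxima were 5.17 to 22.5 kb apart, with a median of 10.9 kb. The rule itself bars maxima within 5 kb of each other, so the lower bound was set in advance. Of the 12 highest-scoring peaks, 8 were local maxima. The other 4, scoring 296, 207, 179 and 173, each stood close to a higher one. Local maxima with scores under 100 were 82.7, 78.7, 56.4 and 90.3. The first of these had 4 other peaks with a centre within 5 kb, the last had 1, and the other two had none. When the distance was widened to 10 kb, 8 maxima were left, with scores of 180.5, 389, 193, 191, 78.7, 810.4, 151 and 252 in map order.

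Width and score rose together in the window, as in the list. Spearman's rho was 0.87 across the 43 peaks, 0.89 across the 64 of the rest of the cluster and 0.67 across all 2457. These peaks share 1 list and its cut-off, and neighbours are not independent, so no p is given. The 7 peaks that reached a score of 200 measured 1328 to 2470 bp with a median of 1612 bp, against 1739 bp for the 183 such peaks of the list. At the low end, the 7 peaks under 60 scored 50.87 to 58.5, close to the cut-off of the list. Whether weaker binding lies between the peaks cannot be seen from a list that ends at 50.01.

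**Figure D4:**
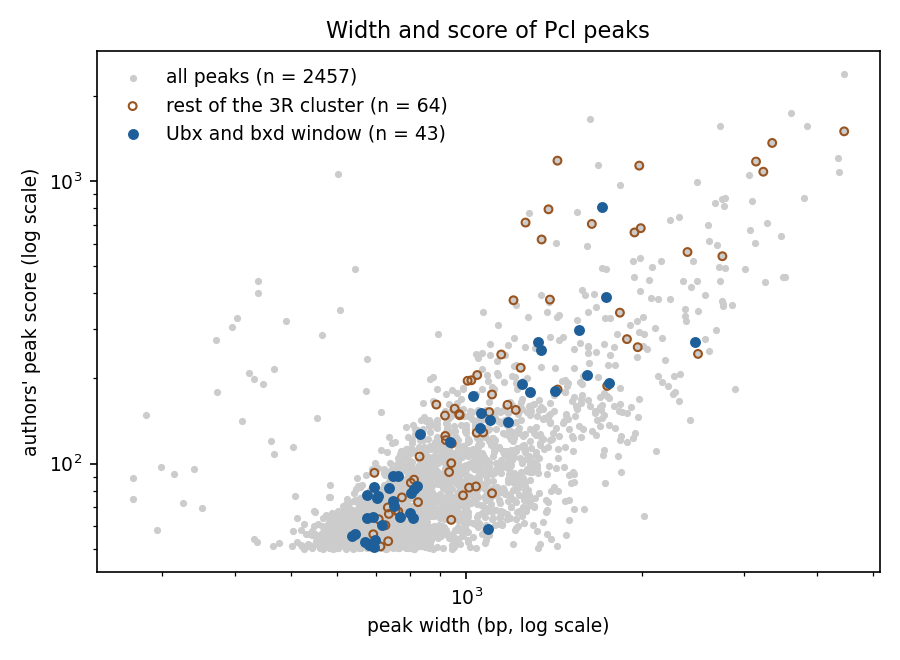
Width (bp, log scale) against the authors' peak score (log scale) for all 2457 peaks (grey), the rest of the 3R cluster (open circles) and the 43 peaks of the Ubx and bxd window (filled). The window's peaks follow the rise of score with width, and the peak of 810.4 stands above them at a width of 1710 bp.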

How the data were processed

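ChIP and input DNA were prepared from embryos crosslinked with 1.8% formaldehyde and sonicated, per the labels' protocols. Bowtie and build BDGP5 are named in the submitters' processing notes, and peaks were called with MACS, per the file headers. No source used here gives versions, settings or the way the 3 replicates were combined. The deposited score was taken as the authors gave it, with no rescaling. The input has no peak list and was not analysed here.

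Starts were converted to 1-based positions, and widths, gaps, ranks, coverage and medians were computed with Python 3.11.15, pandas 2.3.3, numpy 2.4.6 and scipy 1.17.1; gaps are the bases between the end of one peak and the start of the next. Intervals are 95% exact binomial (Clopper-Pearson for shares, ordered values for medians) and cover counting error only. Peaks described singly were the 12 highest by score, the 5 widest, the 3 lowest, the first and last and the local maxima; the others were given with their group. The functions were tested on simulated data. The members, lists and thresholds were chosen with earlier results of these data known. The planned search for motifs in promoters was not run, since no sequence table was used here, and no sequence is printed.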

Additional observations from a re-analysis of the deposited data

How the results depend on the processing

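The highest peak and its rank, 25th in the list, were the same in all alternatives that kept it. For the score minimums, the shortened window and membership by overlap this was fixed in advance, as none could remove or outrank that peak. Joining gaps keeps the highest score of a region, so that score was fixed too. With a score minimum of 60, coverage was 25.1%, and with a minimum of 100 the window held 18 peaks, with a median width of 1307 bp, a median score of 186, a median gap of 4570 bp, a coverage of 16.2%, shares of 38.9% past 200 and 50% at least 1300 bp wide, and 100% past 100 by construction. Joining gaps under 1 kb gave 23 regions with a median length of 1453 bp and a median gap of 3976.5 bp. Their coverage was 35.7%, and 56.5% of them were at least 1300 bp long. Joining merges peaks and fills gaps, so fewer regions and higher coverage follow by construction, but the sizes of these values do not. Coverage was 27.3% without the highest peak, an alternative chosen after seeing the data. Stretches numbered 23 with gaps under 1 kb and 6 with gaps under 5 kb, and local maxima 8 within 10 kb and 27 within 2 kb. Spearman's rho of width and score was 0.88 with a score minimum of 60 and 0.86 without the highest peak. The other 39 of 60 recomputed values include the score and rank of the highest peak, described above. Apart from these and coverage, the 39 did not move beyond 1.5 times (numbers of peaks) or beyond the exact interval (medians and shares of peaks). Coverage has no such interval. It was 28.62% with membership by overlap and 28.56% in the shortened window, against 28.42%. Leaving out each replicate was not run, as they share 1 list. No paired analysis was possible because the replicates have no values of their own. Without read counts, the depth behind each peak is unknown, and sequence between peaks cannot be told from binding under the cut-off.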
